A study of Mus musculus with 4 samples.

Results

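The Meis, Pbx and Pknox homeobox cofactors and the related repressor gene Tgif1 were followed in mouse embryonic stem cells differentiating towards retina, from day 4 to day 7. The group was chosen by gene symbol and held 9 genes (Meis1, Meis2, Meis3, Pbx2, Pbx3, Pbx4, Pknox1, Pknox2 and Tgif1) of the 22180 genes tested. Each had a probe set that named it alone. The study set 2 arrays of day 4 aggregates against 2 arrays of day 7 aggregates, and all 4 samples were wild type. The aggregates were grown in a medium for retinal differentiation with matrigel, and came from a line derived from EB5 (129/Ola) with GFP knocked in under the promoter of Rx (Rax), an eye field gene. The cell line, the knock-in and the culture were thus shared by both days. The labels describe the samples as aggregates and mention no sorting of GFP-positive cells. Whether replicates came from separate cultures is not given in the labels, so p-values cover only the spread of these 4 samples, and that spread may be technical.

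These genes encode homeodomain proteins of the TALE class, whose homeodomain carries extra amino acids in the loop between its first helices. Pbx proteins bind DNA together with Hox and other homeodomain proteins. Meis and Pknox (Prep) proteins bind Pbx, stabilise it and help to keep it in the nucleus, and in the early eye Meis1 and Meis2 are known for roles in retinal progenitors and lens. Tgif1 binds the same core DNA letters as Meis and Pknox proteins but acts as a repressor, and it restrains transcription driven by Nodal, TGF-beta and retinoic acid.

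The promoters of Meis1 and Meis2 are printed because these were the members with the largest rises. The sequences are from RefSeq (build GRCm38.p6), 250 bases ending just before the annotated start, both on the minus strand, at chr11:19018970-19019219 for Meis1 and chr2:116064620-116064869 for Meis2. Capitals mark CG dinucleotides, of which Meis1 had 13 and Meis2 had 7, against a median of 6 over 32851 such windows.
Meis1: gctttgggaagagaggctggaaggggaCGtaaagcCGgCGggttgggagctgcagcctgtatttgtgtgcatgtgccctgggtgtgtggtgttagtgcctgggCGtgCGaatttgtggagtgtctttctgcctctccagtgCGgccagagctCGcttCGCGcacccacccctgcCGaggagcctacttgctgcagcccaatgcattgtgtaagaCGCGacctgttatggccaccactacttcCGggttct
Meis2: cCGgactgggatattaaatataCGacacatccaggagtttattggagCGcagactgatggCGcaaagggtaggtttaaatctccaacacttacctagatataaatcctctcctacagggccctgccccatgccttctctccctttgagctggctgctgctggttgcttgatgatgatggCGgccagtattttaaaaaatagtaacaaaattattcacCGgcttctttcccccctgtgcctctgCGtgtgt
Promoter windows were found for 6 of the 9 genes, with Tgif1 having several starts, and 10 windows in all were searched on both strands. The Meis, Pknox and Tgif core TGACAG was in 0 of these windows and in 15.9% of all windows. The Pbx core TGATTG was in those of Pbx4 and of Tgif1 at the fifth of its starts (12.7% of all windows). The Pbx with Hox motif TGATNNAT was in that of Tgif1 at the fourth of its starts (7.68% of all), and so was the nuclear receptor element AGGTCA (14% of all). The Tcf core CTTTGAT was in that of Tgif1 at the fifth of its starts (3.21% of all). The motifs TGACAG and TGATTG overlap where a Pbx core is followed directly by a Meis core. None of the 5 motifs was in the printed windows of Meis1 and Meis2, which says only that these letters are not there.

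By day 7, Meis1, Meis2, Pknox2 and Pbx2 had risen and Tgif1 had fallen, while Meis3, Pbx3, Pbx4 and Pknox1 did not pass the test. A gene was called at an adjusted p under 0.05 in limma, with Benjamini-Hochberg adjustment over all genes. So 5 of the 9 were called, against 10.5% of all genes tested, with 4 higher, against 6.15%, and 1 lower, against 4.33%. The rises of Meis1, Meis2 and Pknox2 were at least 2-fold, and 3.13% of all genes were both called and at least 2-fold higher. The median log2 difference of the 9 genes was 0.37, and that of all genes was -0.0036. The days did not overlap for 7 of the 9 genes, against 50.8% of all genes, with day 7 above day 4 for 5 (25.6% of all) and below it for 2 (25.1% of all).

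**Figure D1:**
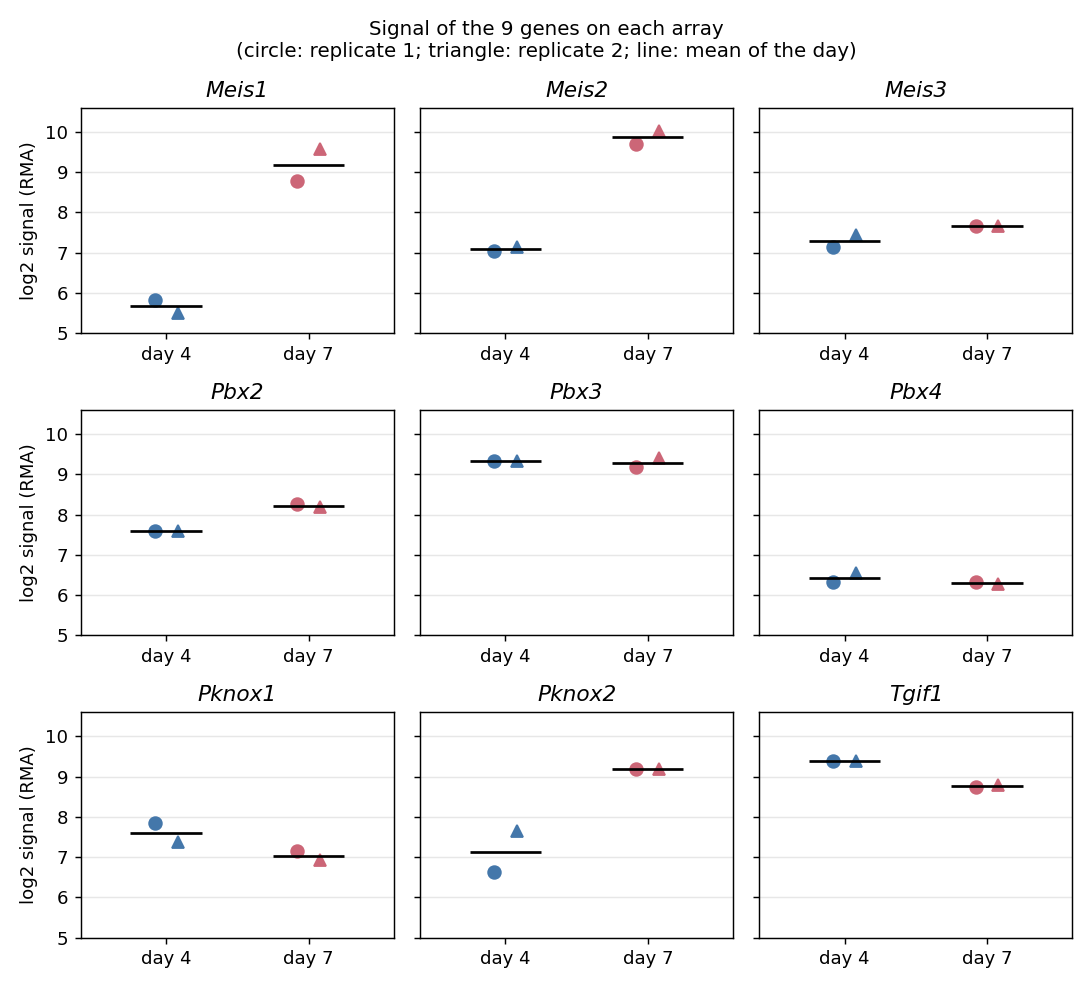
Log2 signal (RMA, vertical axis) of each of the 9 genes on the 4 arrays, by day (horizontal axis). Circles are replicate 1, triangles are replicate 2 and lines are the mean of the day; Meis1, Meis2 and Pknox2 were higher on both day 7 arrays than on both day 4 arrays, and Pbx3 and Pbx4 overlapped between days.

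Meis1 encodes a Pbx partner that is also well known from blood stem cells and leukaemia. Its probe set (17260815) read a log2 signal of 5.83 and 5.49 at day 4 and 8.77 and 9.56 at day 7. The days did not overlap, and day 7 replicate 2 was the higher of its day by 0.79. The rise was 11.4-fold, from 5.66 ± 0.24 to 9.17 ± 0.56 (SD, n = 2 per day; log2 difference 3.50, SE 0.266, limma adjusted p = 0.000505). This was the 42nd largest difference in either direction among the 22180 genes. Leaving out each array in turn gave log2 differences between 3.11 and 3.90.

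Meis2, also known as Stra10 from its response to retinoic acid, rose as well. It read 7.03 and 7.13 at day 4 and 9.70 and 10.03 at day 7 (probe set 17389608). Replicates stood close on both days, and the days were well apart. The rise was 6.88-fold, from 7.08 ± 0.07 to 9.87 ± 0.24 (SD, n = 2; log2 difference 2.78, SE 0.164, limma adjusted p = 0.000186), the 99th largest difference of all genes. Meis1 and Meis2 were called under each of the 12 alternatives run.

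Meis3, the remaining Meis gene, is known for roles in hindbrain patterning. It read 7.14 and 7.44 at day 4 and 7.66 on both day 7 arrays (probe set 17474078). The days did not overlap, but the gap between them was smaller than that between the day 4 arrays. The log2 difference was 0.37 (95% interval 0.0012 to 0.74, unadjusted p = 0.0494, limma adjusted p = 0.215), so a rise of up to 1.67-fold lay within the interval.

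Pknox2 (Prep2) and Pknox1 (Prep1) encode the other Pbx partners of the Meis type. Pknox2 read 6.62 and 7.65 at day 4 and 9.20 and 9.19 at day 7 (probe set 17525561). Nearly all of the replicate spread was at day 4, where the arrays differed by 1.04, and both day 7 arrays were above both day 4 arrays. The rise was 4.17-fold, from 7.14 ± 0.73 to 9.19 ± 0.01 (SD, n = 2; log2 difference 2.06, SE 0.307, limma adjusted p = 0.00689). Leaving out day 4 replicate 1 gave a log2 difference of 1.54, and leaving out day 4 replicate 2 gave 2.58. When day 7 replicate 1 was left out the adjusted p was 0.0553, and for day 7 replicate 2 it was 0.05, no longer under the threshold.

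Pknox1, which is expressed in most embryonic tissues, read 7.84 and 7.38 at day 4 and 7.15 and 6.92 at day 7 (probe set 17335878). Both day 7 values lay below both day 4 values, but the gap between the days was smaller than the spread at day 4. The log2 difference was -0.58 (95% interval -1.03 to -0.12, limma adjusted p = 0.119), and leaving out day 4 replicate 2 brought the adjusted p to 0.0308, while it was 0.255 to 0.475 on leaving out any other array.

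**Figure D2:**
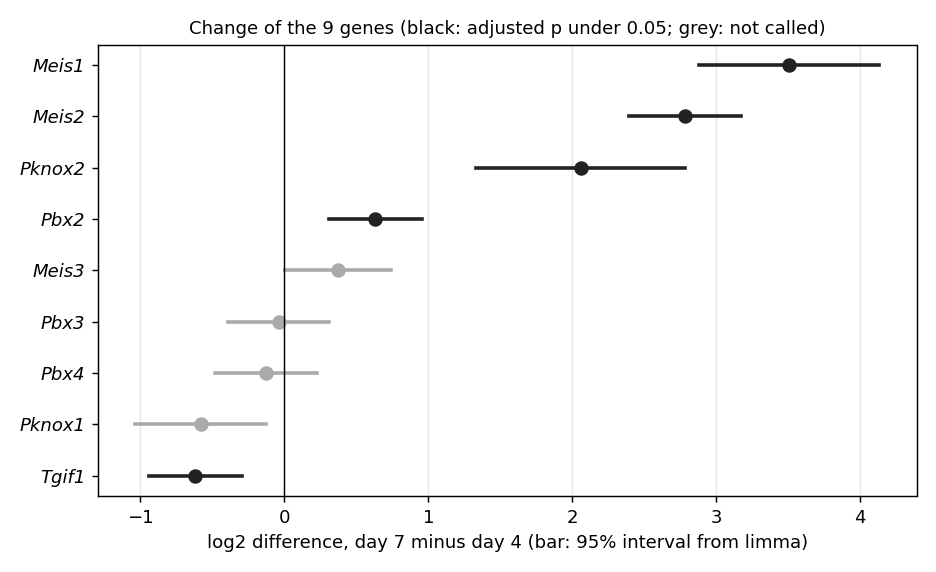
Log2 difference of day 7 minus day 4 (horizontal axis) for the 9 genes, ordered by size. Points are limma's estimates and bars are 95% intervals; black marks an adjusted p under 0.05, grey genes were not called. Meis1, Meis2 and Pknox2 stand apart from the others at 3.50, 2.78 and 2.06.

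Pbx genes encode the common partners of Meis, Pknox and Hox proteins. Of Pbx2, Pbx3 and Pbx4, Pbx2 rose and the other two were not called. Pbx2 read 7.59 on both day 4 arrays and 8.25 and 8.19 at day 7 (probe set 17336602). Replicates differed by 0.0073 at day 4 and 0.063 at day 7, far less than the days. The rise was 1.55-fold (log2 difference 0.63, SE 0.137, limma adjusted p = 0.0288). The call was lost when any array was left out, while the log2 difference stayed between 0.598 and 0.662. The adjusted p became 0.0654 or 0.0578 on dropping day 4 replicate 1 or 2, and 0.205 or 0.152 on dropping day 7 replicate 1 or 2.

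Pbx3 read 9.34 and 9.32 at day 4 and 9.17 and 9.41 at day 7 (probe set 17384234), so that the day 7 arrays lay on either side of the day 4 arrays. Its log2 difference was -0.04 (95% interval -0.39 to 0.31, limma adjusted p = 0.929). Pbx4, the most divergent Pbx gene and best known from testis, read 6.32 and 6.55 at day 4 and 6.33 and 6.28 at day 7 (probe set 17501755). The days overlapped, with a log2 difference of -0.13 (95% interval -0.48 to 0.22, limma adjusted p = 0.708). For both genes the interval left out changes as large as those of Meis1, Meis2 and Pknox2.

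Tgif1 read 9.39 on both day 4 arrays and 8.74 and 8.80 at day 7 (probe set 17346936). The days did not overlap and the replicates were close. Signal at day 7 was 1.54-fold lower (log2 difference -0.62, SE 0.137, limma adjusted p = 0.0309). As for Pbx2, leaving out any array ended the call, while the log2 difference stayed between -0.588 and -0.649. The adjusted p became 0.071 or 0.0597 on dropping day 4 replicate 1 or 2, and 0.213 or 0.16 on dropping day 7 replicate 1 or 2. In bulk RNA fewer cells that express a gene and less RNA per cell cannot be told apart.

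Within families the changes differed in size on these arrays. Relative to Meis3 on the same array, Meis1 shifted by 3.13 log2 between the days and Meis2 by 2.41, and relative to each other Meis1 gained 0.72 on Meis2. Pknox2 shifted by 2.64 log2 relative to Pknox1, with the log ratio at -1.22 and 0.27 on the day 4 arrays and 2.05 and 2.27 on the day 7 arrays. Pbx2 shifted by 0.67 relative to Pbx3 and by 0.76 relative to Pbx4. Each pair was set with the gene of the larger log2 difference first, so the shared direction of the shifts follows from that order. Pbx3 was not set against Pbx4. In each of these 6 ratios the day 7 arrays lay above the day 4 arrays. An exact two-sided permutation test gave p = 0.333 for each, also after adjustment over the 6, which is the smallest p that 2 arrays against 2 allow.

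Of the other TALE genes 1 of 9 was called, a share near the 10.5% of all genes. Among those measured (Tgif2, Mkx, Irx1 to Irx6, and Pbxip1, whose product binds Pbx), Irx2 was the gene that rose, and limma called 0 lower (3 higher and 1 lower at an unadjusted p under 0.05). The median log2 difference was 0.17. Of all 22180 genes, 2796 were higher and 2322 lower at an unadjusted limma p under 0.05. Irx2, a patterning gene of the Iroquois family, read 6.77 and 6.95 at day 4 and 7.78 and 8.23 at day 7 (2.21-fold, limma adjusted p = 0.0098, and 0.0725 on dropping day 7 replicate 2). Tgif2, the close relative of Tgif1, stood at 7.92 ± 0.12 at day 4 and 8.05 ± 0.04 at day 7 (SD, n = 2), with a log2 difference of 0.14 (95% interval -0.20 to 0.47, limma adjusted p = 0.678). Mkx had a log2 difference of -0.70 (limma adjusted p = 0.194), with a large gap between its day 4 arrays (7.57 and 6.65). Dropping day 4 replicate 2 gave -1.16 (adjusted p = 0.00538), and dropping day 4 replicate 1 gave -0.24 (adjusted p = 0.492). Irx1 had a log2 difference of 0.53 (limma adjusted p = 0.157, and 0.0284 on dropping day 4 replicate 2, against 0.355 to 0.507 on dropping any other array). Pbxip1 had a log2 difference of 0.35 (limma adjusted p = 0.231).

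Hox proteins of the first paralog groups pair with Pbx and Meis in the hindbrain. The list of their genes held 13 tested genes, 1 higher, 0 lower and 12 outside the threshold in limma (4 higher and 0 lower at an unadjusted p under 0.05), with a median log2 difference of 0.17. The share called was near that of all genes (10.5%). The gene that rose was Hoxa2, a gene of the anterior hindbrain. It read 4.61 and 4.68 at day 4 and 5.75 and 6.17 at day 7 (2.48-fold, limma adjusted p = 0.0045). These are dim signals, with the day 4 values near the 25th percentile of gene levels (4.598). The mean level of the list was 4.695 to 5.126 on the 4 arrays, against 6.534 to 6.568 for all genes. Hoxb1, a further hindbrain gene, was just outside the threshold with a log2 difference of 0.78 (limma adjusted p = 0.0514). It was called under 9 of the 12 alternatives, with an adjusted p between 0.0151 and 0.300.

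A list of 18 genes described as bound or controlled by Meis, Pbx or Pknox factors shares 4 Hox genes with the list above. In limma it had 6 genes higher, 0 lower and 12 not called, against 6.15% higher and 4.33% lower of all genes. At an unadjusted limma p under 0.05 it had 9 higher and 0 lower, against 2796 and 2322 of all 22180 genes. Its median log2 difference was 0.45. The eye and forebrain gene Pax6, which has enhancers that bind Meis proteins, rose 11.1-fold (log2 difference 3.48, limma adjusted p = 0.00014). Sst, the somatostatin gene, whose promoter binds Pbx and Pknox1, read 6.16 and 6.32 at day 4 and 9.57 and 9.16 at day 7, a rise of 8.75-fold (limma adjusted p = 0.000164). Dcx, the doublecortin gene of young neurons, rose 3.23-fold from 4.59 ± 0.06 (SD, n = 2; limma adjusted p = 0.000744). The other genes called were Sox3, Hoxa2 and the cell cycle inhibitor gene Cdkn1a.

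Genes of retinoic acid synthesis, response and breakdown were higher in 6 of 14 cases and lower in 1, with 7 not called. Over all genes 6.15% were called higher and 4.33% lower. The median log2 difference of the list was 0.34. Crabp1, which encodes a retinoic acid binding protein of the cytoplasm, rose 6.39-fold (limma adjusted p = 0.000257). Aldh1a3, an enzyme that makes retinoic acid in the optic vesicle, rose 4.95-fold (limma adjusted p = 0.0269) but read 6.60 and 8.26 on the day 7 arrays. Dropping day 4 replicate 1 brought its adjusted p to 0.0756, and dropping day 7 replicate 2 to 0.0528. Stra6, the receptor for the retinol carrier, rose 3.88-fold (limma adjusted p = 0.0188), reading 8.07 and 9.30 on the day 7 arrays. Its rise was 5.93-fold or 2.54-fold on dropping day 7 replicate 1 or 2, and that of Aldh1a3 was 8.79-fold or 2.79-fold. Rarg, a retinoic acid receptor gene, was 2.19-fold lower (limma adjusted p = 0.00587, and 0.0604 on dropping day 7 replicate 2). Without day 7 replicate 2 the list had 3 genes higher and 0 lower.

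In the Nodal and TGF-beta pathway, which Tgif1 restrains, 2 of 13 genes rose, 4 fell and 7 were not called. Over all genes 6.15% were called higher and 4.33% lower. The median log2 difference of the list was -0.19. Foxh1, the transcription factor of Nodal signalling, was 9.33-fold lower (limma adjusted p = 9.78e-05). Tdgf1, the Nodal co-receptor, was 3.65-fold lower (limma adjusted p = 0.00119) and the ligand gene Gdf3 2.05-fold lower (limma adjusted p = 0.0226). Lefty2 was the other gene that fell. The signal transducer gene Smad3 rose 2.81-fold (limma adjusted p = 0.000998) and the receptor gene Acvr2a 2.23-fold (limma adjusted p = 0.00432). Without day 7 replicate 1 the list had 1 gene higher and 2 lower, and without day 7 replicate 2 it again had 2 lower. On dropping day 7 replicate 1 the adjusted p was 0.0507 for Acvr2a and 0.161 for Gdf3, and on dropping day 7 replicate 2 it was 0.0959 for Gdf3. Of 7 genes for corepressors described as partners of Tgif1, limma called 0 higher and 1 lower (1 and 2 at an unadjusted p under 0.05). Over all genes 10.5% were called in either direction. The corepressor gene called was Skil, at 3.00-fold lower (limma adjusted p = 0.00192).

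**Figure D3:**
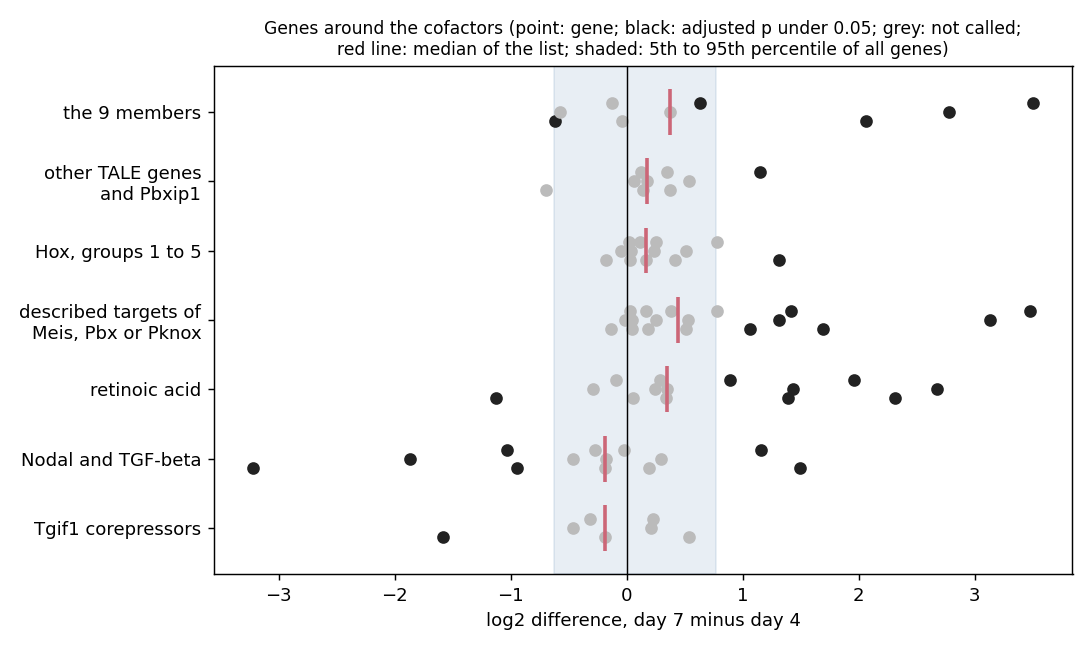
Log2 difference of day 7 minus day 4 (horizontal axis) for the 9 genes and for 6 lists of related genes. Each point is a gene, black with an adjusted p under 0.05 and grey otherwise; the red line is the median of its list and the shaded band spans the 5th to the 95th percentile of all genes. Retinoic acid genes lie mostly to the right and called Nodal genes on both sides.

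Markers of the tissue and of other cell types were counted in the same fit, in which 6.15% of all genes rose and 4.33% fell. Of the eye field and early retina markers 3 of 6 rose (Pax6, Lhx2 and Rax), 0 were called lower and 3 were not called. Among those not called, Otx2 was lower on both day 7 arrays (log2 difference -0.54, limma adjusted p = 0.0898). Six6 had a log2 difference of 2 (limma adjusted p = 0.0916) and Six3 one of 0.36 (limma adjusted p = 0.786). The mean log2 level of the 6 markers was 7.11 and 7.74 on the day 4 arrays and 8.75 and 9.41 on the day 7 arrays. It was higher in replicate 2 of each day. Day 7 replicate 2 was also the higher of its day for the mean of the endoderm (7.03 and 7.48) and surface ectoderm markers (7.03 and 7.33). The same held for the mesoderm, blood and endothelium, and pluripotent and epiblast markers (7.85 and 8.08 for the last). It was the lower for the neural progenitor (10.46 and 10.25), early neuron (7.52 and 7.49) and neural crest markers. Of the members, Meis1, Meis2, Pbx3 and Tgif1 were higher on that array, and the others were equal or lower. Of the neural progenitor markers 5 of 6 rose, and of the pluripotent and epiblast markers 4 of 8 fell. Early neuron markers included 1 higher (Dcx) and 1 lower (Stmn2) of 5, and endoderm markers 1 higher of 7 (Sox17). In limma 0 of 4 surface ectoderm markers were called, and 0 had an unadjusted p under 0.05. Neural crest markers, a cell type in which Meis genes are also known, were higher in 4 of 6 cases (Tfap2b, Pax3, Sox10 and Snai2) and lower in 1 (Foxd3). Their mean log2 level was 5.97 and 6.10 on the day 4 arrays and 7.66 and 7.61 on the day 7 arrays. Among mesoderm markers 2 of 9 rose, Pdgfra and Twist1, and Eomes fell. Their mean level was 6.11 and 6.20 at day 4 and 6.37 and 6.61 at day 7. Of the blood and endothelium markers, a lineage known for Meis1, 1 of 6 rose (Kdr), with mean levels of 5.61 and 5.91 at day 4 and 5.85 and 6.30 at day 7. RMA values have no true zero, so no marker can be said to be at 0. The part of these cell types in the rises of Meis1, Meis2 and Pknox2 was not tested.

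Neighbours along the chromosome were compared by the gene order in RefSeq, taking the nearest tested protein-coding gene on each side. They were chosen by position after the changes of the members were known. Distances between the genes were not taken into account, and over all genes 10.5% were called in either direction. Both neighbours of Meis1 were not called (Etaa1 with a log2 difference of -0.17 and Spred2 with -0.083), nor were those of Meis2 (BC052040 with -0.0050 and Tmco5 with -0.040). Both neighbours of Pknox2 rose with it. Fez1, a gene of axon growth, read 5.89 and 6.07 at day 4 and 8.25 and 7.78 at day 7, a rise of 4.10-fold (limma adjusted p = 0.00105). Tmem218, a gene of the primary cilium, rose 1.49-fold (limma adjusted p = 0.0401, and 0.0804 to 0.241 with an array left out). Both neighbours of Pknox1 fell, Cbs, an enzyme gene of the breakdown of homocysteine, by 1.00 log2 (limma adjusted p = 0.00557, and 0.0666 on dropping day 7 replicate 1) and Ndufv3, a gene of respiratory complex I, by 0.64 log2 (limma adjusted p = 0.0338, and 0.102 to 0.207 on dropping any array but day 4 replicate 2). Of the other neighbours of the members, Mvb12b next to Pbx3 was called, with a log2 difference of 0.75 (limma adjusted p = 0.0148, and 0.128 or 0.0987 on dropping day 7 replicate 1 or 2).

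For each called member the genes with the most similar pattern were taken by the root mean square distance of the 4 array values, each gene centred on its own mean, over 14747 genes. With 4 arrays such a likeness is a description alone. The nearest to Meis1 were Cp, which encodes the copper protein ceruloplasmin (distance 0.17 log2), and Minar2 (0.179). The rise of Cp was 17.3-fold or 7.17-fold on dropping day 7 replicate 1 or 2, and 11.1-fold with all arrays. Nearest to Meis2 were Fat4, a gene of a large cadherin (0.0825), and the hedgehog co-receptor gene Boc (0.0968). Nearest to Pknox2 were the cadherin gene Cdh20 (0.0446) and the sulfotransferase gene Chst2 (0.114), whose day 4 replicates also lay apart, by 0.916 and 1.06 log2. Rufy3 (0.0115) and the follistatin-like gene Fstl1 (0.0129) were nearest to Pbx2, and Il1rl2 (0.0174) and Izumo1 (0.018) to Tgif1. Il1rl2 and Izumo1 were dim, with mean levels at percentiles 26.7 and 30.4 of all genes, against 82.8 for Tgif1.

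**Figure D4:**
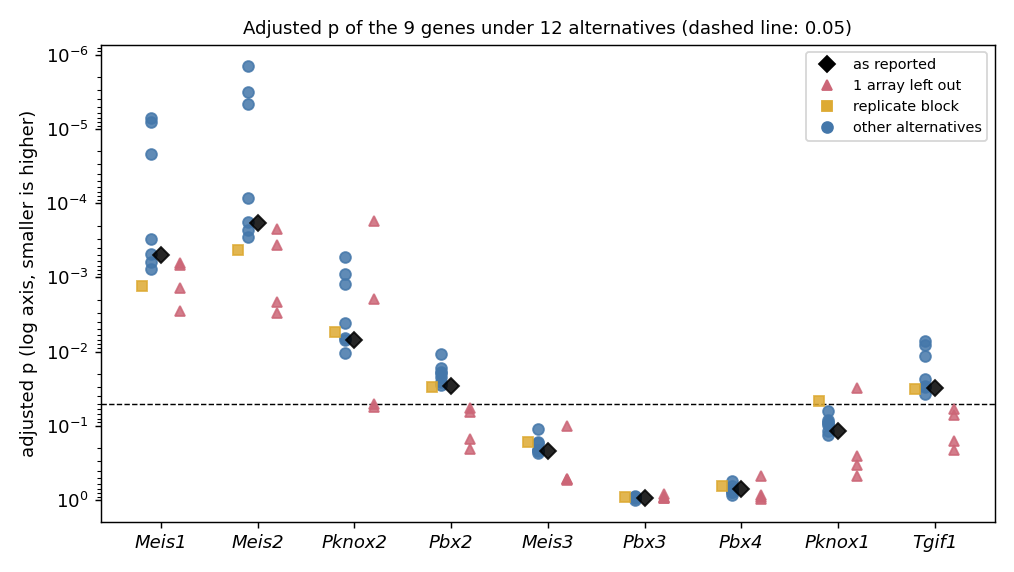
Adjusted p (vertical axis, logarithmic and inverted, so that smaller values are higher) of the 9 genes under 12 alternatives. Diamonds are the values as reported, triangles leave out 1 array, squares use the replicate number as a block and circles are the other alternatives; the dashed line is 0.05. Meis1 and Meis2 stay above the line throughout, while Pbx2 and Tgif1 drop below it with any array left out.

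As a check of the arrays, the median log2 signal lay between 5.68 and 5.77. Across probe sets, which do not count as replicates, r was 0.986 for the day 4 arrays, 0.991 for the day 7 arrays and 0.972 to 0.978 for arrays of different days.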

How the data were processed

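The values deposited by the authors are on a log2 scale, with a row per probe set. They were made with RMA and Partek 6.5, according to the submitters' processing notes. RMA removes background and equalises the arrays' distributions, so folds of dim genes are understated and a shift common to most genes is hidden. Per the labels' protocols, the total RNA was converted to sense cDNA and hybridised to an Affymetrix array.

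The platform annotation gave a single gene for 23521 of 41345 probe sets, and the brightest probe set on average stood for its gene, which left 22180 genes. Day 7 was set against day 4 in R 4.3.3 by limma 3.58.1 (lmFit, then eBayes with no trend), two-sided, with 2 residual degrees of freedom and a prior of 5.07. Intervals use limma's moderated SE. The fit was tested on 20 simulations of 22180 genes, 200 of them changed. It recovered 45.2% of changes of 1 log2 and 98.2% of changes of 2, with 5.43% of calls false. The simulated spreads came from limma's own fitted prior with independent normal noise, so this false share follows from the model. In the data 2324 genes were called, far more than the 200 changed here, so the recovered shares do not carry over directly. Permutation tests used SciPy 1.17.1. The number of arrays limits the precision.

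All 9 genes were always named. Each list gave at most 3 called genes per direction, those that changed most, or its most changed gene where it had no call. Any of the other TALE genes and Pbxip1 could be named, and the genes nearest in pattern were named by distance. Others (Hoxb1, Lefty2, Sox3 and Cdkn1a, and the neighbours) were named after their values were seen. The members and lists were chosen with earlier results of these data known. Alternatives tried were a replicate block, dropping each array, quantile normalization, median centring, keeping genes above the 25th or the 50th percentile of level, a variance trend with or without a robust prior, averaging the probe sets of each gene, and limits of 0.01 and 0.1.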

Additional observations from a re-analysis of the deposited data

How the results depend on the processing

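Over the 12 alternatives 0 results of the 9 genes reversed, and Meis1, Meis2, Meis3, Pbx3 and Pbx4 kept their side of the threshold. The count called higher was 4, fewer with any array left out, and 3 at an adjusted p limit of 0.01. The count called lower was 1, 0 to 1 with an array left out (Pknox1 in place of Tgif1 without day 4 replicate 2), 0 at an adjusted p limit of 0.01 and 2 with the replicate block, where Pknox1 had an adjusted p of 0.046. Of 22180 genes 2324 were called, 887 to 2500 with an array left out, and 1078 at a limit of 0.01. The replicate numbers are not said to pair the samples. Deviations of same-numbered arrays correlated with r = 0.186 over 22180 genes, and the block gave 2770 calls. The alternatives were also followed for 52 other named genes, of which 17 changed side under at least 1 alternative. Lefty2, Sox3, Cdkn1a and the genes named only as cell type markers were not among them. With an array left out its day has 1 sample, assumed to vary like the other day, with 1 residual degree of freedom.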
